A study of Mus musculus with 12 samples.

Results

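The steroid hormone receptors measured in mouse ovary were the progesterone receptor Pgr, the estrogen receptors Esr1 and Esr2 and the glucocorticoid receptor Nr3c1. With them were taken the immunophilins Fkbp4 and Fkbp5, which sit on such receptors before hormone binds. Every probe set whose platform annotation names only one of these genes was taken. That gave 9 of the 16376 probe sets in the table, and 6 of the 10949 genes that the table measures under a single symbol. Nr3c1 was read by 3 probe sets, Fkbp4 by a pair of probe sets, and each of the other members by a single one.

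Ovaries of 12 female mice were profiled, 1 array per sample, when the mice were 23 weeks old and in diestrus, the quiet phase of the cycle. The 6 control mice were Pgrcre/+ and had no tumor. The other mice were Pgrcre/+PgrBLsL/+, with 3 ovaries at tumor stage I and 3 at stage II. The series title speaks of constitutive expression of the progesterone receptor isoforms and of ovarian neoplasia. By its name Pgrcre places the Cre recombinase at the Pgr locus. All 3 groups carried that allele in the heterozygous state, so no group was wild type. The labels do not spell out PgrBLsL, and they name no promoter that drives it. Tumors were present in all ovaries with PgrBLsL and in none of the controls, so allele and tumor cannot be told apart in the comparisons with controls. Both of those comparisons share the same 6 controls.

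Steroid receptors are transcription factors that are switched on by their hormone. Without hormone they are held by Hsp90, its co-chaperones and an immunophilin; Fkbp4 (FKBP52) promotes signalling by the progesterone and glucocorticoid receptors, while Fkbp5 (FKBP51) lowers hormone binding of the glucocorticoid receptor and is itself a classic target gene of glucocorticoids and progestins. In the ovary, Pgr is switched on in granulosa cells of preovulatory follicles by the gonadotropin surge and is needed for ovulation. Esr2 is the estrogen receptor of granulosa cells, and Esr1 is found mainly in theca, stroma and surface epithelium.

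Values are the deposited log2 levels, so a difference of 1 is a doubling. Differences were tested with limma across all 16376 probe sets with Benjamini-Hochberg adjustment, and a probe set was called at an adjusted p under 0.05. Over the whole table, limma called 0.195% of probe sets higher and 0% lower in stage I than in controls, where 579 were higher and 441 lower at an unadjusted p under 0.05. Stage II had 9.25% higher and 10.1% lower than controls, and 6% higher and 4.92% lower than stage I. That last split was 983 higher and 806 lower as deposited, and 957 higher and 1215 lower after quantile normalization. Array medians lay between 7.09 and 7.15. Markers of the ovary were present in all 12 arrays, with the mean level of 9 granulosa cell genes between 10.29 and 11.47 and that of 8 oocyte genes between 7.32 and 8.77. The oviduct gene Ovgp1 varied within every group and reached 12.70 in control replicate 5, 11.77 in stage I replicate 2 and 11.58 in stage II replicate 2.

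Against this background the members split into 3 kinds. Pgr was higher in both stages than in controls, Fkbp4 was lower and Fkbp5 higher in stage II than in either other group, and Esr1, Esr2 and Nr3c1 were called in no comparison. By probe set, 1 of the 9 was called in stage I against control, higher. In stage II, 2 were called higher and 2 lower than in controls, and the same counts held against stage I. The plot of the members by array shows these levels.

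**Figure D1:**
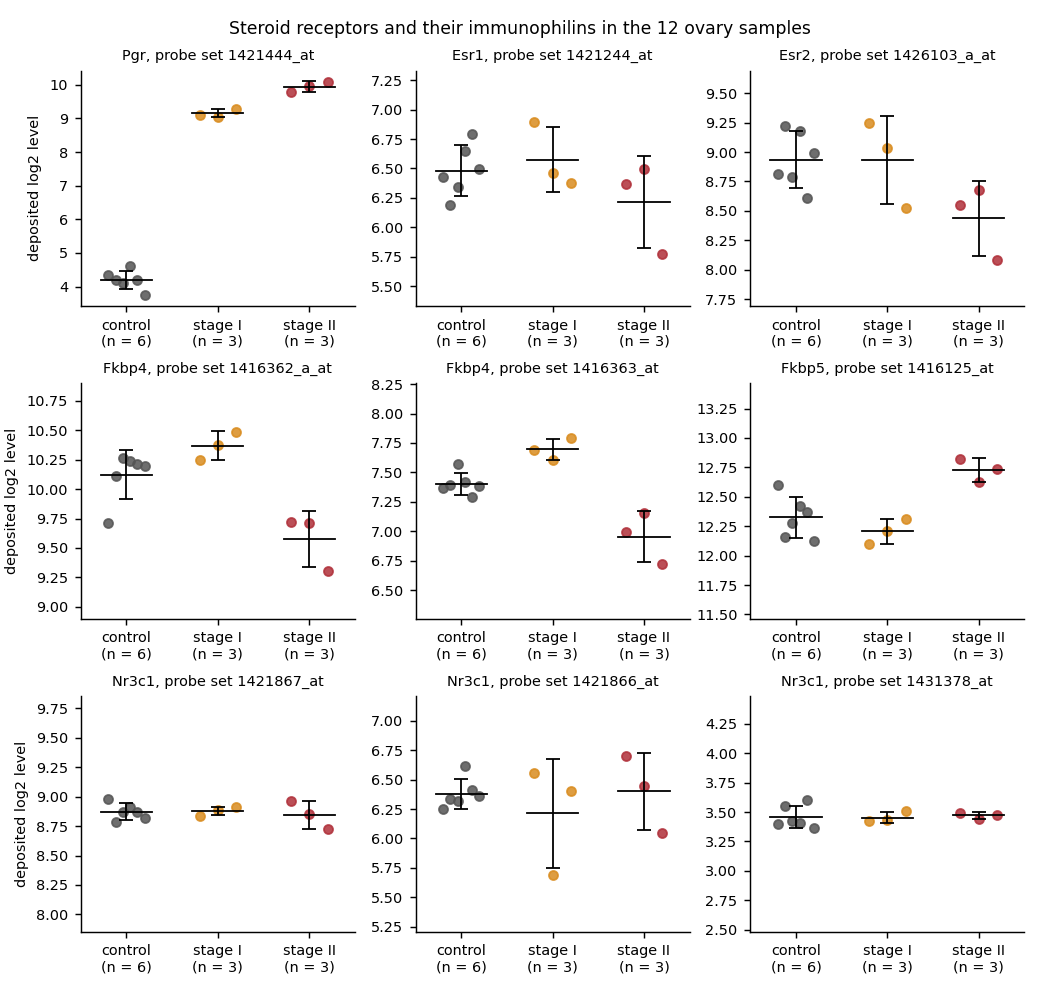
Deposited log2 level of the 9 member probe sets in each of the 12 ovary samples, with 1 panel per probe set and its own vertical axis; points are arrays, long bars are group means and error bars are SD. Pgr separates the 3 groups, both Fkbp4 probe sets are lowest in stage II, Fkbp5 is highest in stage II, and the Nr3c1 groups overlap.

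Pgr was the member that differed most. The controls ran from 3.74 to 4.60, with a median of 4.19, near the low end of the table, whose lowest value is 2.69. Stage I ovaries measured 9.11, 9.05 and 9.28. Stage II ovaries measured 9.78, 9.96 and 10.09. All ovaries with PgrBLsL were far above every control, and every stage II ovary was above every stage I ovary. As group means the levels were 4.20 ± 0.28 (SD, n = 6), 9.15 ± 0.12 (SD, n = 3) and 9.94 ± 0.16 (SD, n = 3). Over all probe sets, stage I lay above every control in 2.13% and stage II in 9.67%. Stage II lay above all of stage I in 14.4%.

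In stage I, Pgr was 30.9-fold higher than in controls (log2 difference 4.95 ± 0.15 SE, limma adjusted p = 1.3e-09), and in stage II it was 53.7-fold higher (5.75 ± 0.15 SE, limma adjusted p = 2.11e-10). On all 12 arrays Pgr was high where the labels give PgrBLsL and low where they do not. The step from stage I to stage II was much smaller, at 1.74-fold (log2 0.80 ± 0.17 SE, 95% interval 0.43 to 1.16, limma adjusted p = 0.0121). By p-value Pgr ranked 2 of 16376 in both comparisons with controls and 610 between the stages. The step between stages missed the threshold without stage I replicate 2 (0.75, limma adjusted p = 0.0502) and without stage II replicate 3 (0.72, limma adjusted p = 0.0543). In whole-ovary RNA, fewer cells of a type and less RNA per cell cannot be told apart, and this holds for every member.

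Whether the probe set reads the transcript of the native locus, one of PgrBLsL or both is not given, so the levels are assigned to neither. Which Pgr isoforms it reads was not analysed here. No background limit was measured for the controls, so the fold changes are those of the deposited scale.

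The genes whose centred levels lay nearest to those of Pgr over the 12 arrays also rose already in stage I. Distance is the root mean square of the differences in log2 level after each gene was centred on its own mean. It was 0.76 for Tspan8, a tetraspanin of the cell surface, 0.91 for Pmaip1, which encodes the BH3-only protein Noxa, and 0.95 for Svs5, a seminal vesicle secretory protein. Vwce followed at 1.02 and Fga, the fibrinogen alpha chain, at 1.10, against a median of 2.70 over 10943 genes. Tspan8 went from a mean of 7.46 in controls to 11.31 in stage I and 13.30 in stage II. The stage I mean of Pgr was closer to its stage II mean than that of any of these genes, whose log2 steps between the stages were 1.99, 2.39, 1.48, 2.48 and 2.93 in the order named. Within stage I, Pgr was lowest in replicate 2 and highest in replicate 3, whereas Tspan8 measured 12.52 in replicate 1, 10.76 in replicate 2 and 10.64 in replicate 3. These genes were chosen for their likeness, so no test of it is given.

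**Figure D2:**
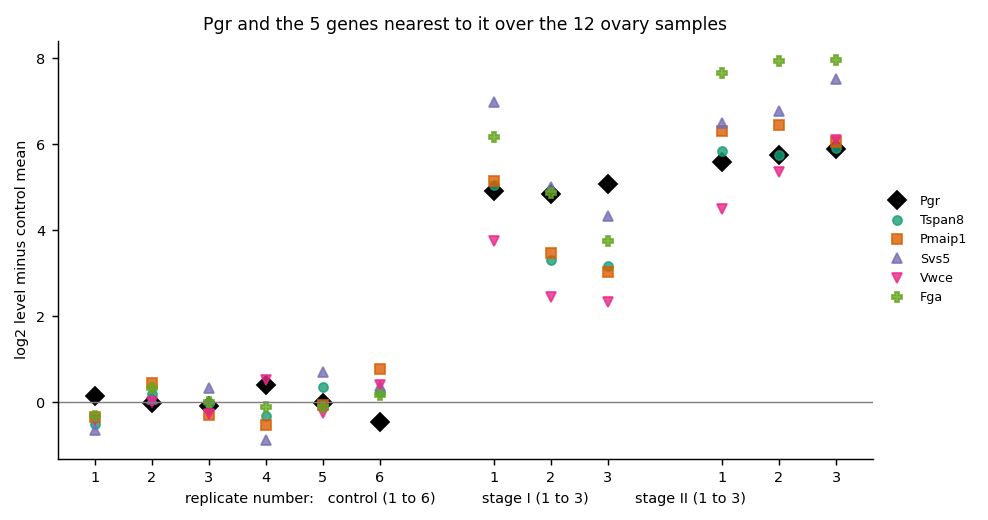
Log2 level minus the control mean for Pgr and for the 5 genes with the smallest root mean square distance from it, in each array by group and replicate number. Pgr is nearly level across the stage I arrays, while the other genes are highest in stage I replicate 1; all 6 are above every control in both stages.

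Esr1, the estrogen receptor alpha, did not separate the groups. Control levels ran from 6.19 to 6.79 around a median of 6.46, stage I measured 6.89, 6.46 and 6.38, and stage II measured 6.37, 6.50 and 5.77. Only stage II replicate 3 lay below all controls. The log2 difference was 0.09 in stage I (95% interval -0.28 to 0.47, limma adjusted p = 0.994) and -0.27 in stage II (-0.64 to 0.11, limma adjusted p = 0.318). Between stage II and stage I it was -0.36 (-0.80 to 0.07, limma adjusted p = 0.283). The intervals include no difference as well as a fall of up to 1.56-fold from controls in stage II.

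Esr2, the estrogen receptor beta, measured between 8.61 and 9.22 in controls, with a median of 8.90. Stage I measured 9.24, 9.03 and 8.52 and stage II 8.55, 8.68 and 8.08. Stage II replicates 1 and 3 lay below every control, and replicate 2 lay within their range. The stage I mean was level with the controls (log2 difference -0.00, 95% interval -0.40 to 0.39, limma adjusted p = 0.999). In stage II the difference from controls was -0.50 ± 0.18 SE (95% interval -0.89 to -0.10), which missed the threshold after adjustment (unadjusted p = 0.0174, limma adjusted p = 0.0748). It passed only without stage I replicate 3 (limma adjusted p = 0.0491 with the same difference). Against stage I the difference was also -0.50 (limma adjusted p = 0.153).

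Granulosa cell markers moved in the same arrays. Of 9 measured markers, 6 were called lower and 2 higher in stage II than in controls. Inhba, an inhibin and activin subunit made by granulosa cells, fell by 1.77 ± 0.44 SE on the log2 scale (limma adjusted p = 0.0158), and by 1.04, no longer called, once stage II replicate 3 was left out, and Gatm, a creatine synthesis enzyme, was higher by 1.46 ± 0.17 SE (limma adjusted p = 9.75e-05). Without stage II replicate 3 the counts were 3 lower and 1 higher. The mean level of the 9 genes ran from 10.79 to 11.28 in controls, and was 10.80, 10.92 and 10.29 in stage II. That lowest value belongs to stage II replicate 3, the array with the lowest Esr2, Esr1 and Fkbp4 and the highest Pgr of all. The part of granulosa cell content in the Esr2 levels was not tested.

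Nr3c1, the glucocorticoid receptor, was level across the groups on each of its probe sets. On the probe set with the highest signal (1421867_at) the controls ran from 8.78 to 8.98 around a median of 8.87, stage I measured 8.84, 8.89 and 8.91, and stage II 8.96, 8.86 and 8.72. All groups overlapped. The differences were 0.01 in stage I and -0.03 in stage II, with 95% intervals of -0.13 to 0.15 and -0.17 to 0.11 (limma adjusted p = 0.999 and 0.831). A fall of Nr3c1 by more than 1.12-fold or a rise by more than 1.08-fold in stage II lies outside that interval.

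The other Nr3c1 probe sets were less precise or dimmer. Probe set 1421866_at measured 6.25 to 6.62 in controls with a median of 6.35, then 6.56, 5.69 and 6.40 in stage I and 6.70, 6.45 and 6.05 in stage II. Stage I replicate 2 was the lowest of all arrays there, and it was not low on 1421867_at. The differences from controls were -0.17 in stage I (limma adjusted p = 0.974) and 0.02 in stage II (limma adjusted p = 0.96). Probe set 1431378_at stayed between 3.36 and 3.61 on all 12 arrays, near the low end of the table, and its differences were within 0.02 in each comparison.

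Fkbp4, the immunophilin that promotes receptor signalling, was lower in stage II. Its brighter probe set (1416362_a_at) ran from 9.71 to 10.26 in controls with a median of 10.20, and measured 10.25, 10.37 and 10.49 in stage I. Stage II measured 9.72, 9.71 and 9.30. Stage II lay below all stage I arrays and below all controls but replicate 1, which at 9.71 was the only low control. Its other probe set (1416363_at) ran from 7.29 to 7.57 in controls with a median of 7.39. It measured 7.69, 7.61 and 7.79 in stage I and 6.99, 7.15 and 6.72 in stage II. On that probe set the 3 groups did not overlap, with stage I highest and stage II lowest, and control replicate 1 was not low. Over all probe sets, stage I lay above every control in 2.13% and stage II below every control in 11%. Stage II lay below all of stage I in 16.2%.

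Against controls, stage II was 1.46-fold lower on 1416362_a_at (log2 -0.54 ± 0.13 SE, limma adjusted p = 0.0115) and 1.36-fold lower on 1416363_at (-0.45 ± 0.09 SE, limma adjusted p = 0.00489). Against stage I it was 1.73-fold lower (-0.79 ± 0.15 SE, limma adjusted p = 0.00643) and 1.67-fold lower (-0.74 ± 0.10 SE, limma adjusted p = 0.00128). Stage I was above controls by 0.25 (95% interval -0.03 to 0.53, limma adjusted p = 0.873) and 0.29 (0.10 to 0.49, limma adjusted p = 0.535), and neither probe set passed the threshold there. As the mean of both probe sets, Fkbp4 differed from controls by -0.50 in stage II (limma adjusted p = 0.00459). The call against controls on 1416362_a_at ended without stage II replicate 3 (-0.41, limma adjusted p = 0.0785), and the other 3 Fkbp4 calls held without any single array.

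Markers of several ovarian cell types were lower in the same stage II ovaries. Oocyte markers were called lower than in controls in 8 of 8 genes, and in 7 without stage II replicate 3, where their mean log2 level was lowest. That mean ran from 8.30 to 8.77 in controls and was 7.91, 8.02 and 7.32 in stage II. Against stage I, 8 of 8 were lower, but 1 without stage I replicate 3 and 2 without stage II replicate 3. In the fit with a replicate block, 5 were called lower than in controls and 0 lower than in stage I. Fibroblast and stroma markers were lower than in controls in 7 of 9 genes (4 without stage II replicate 3). Smooth muscle and pericyte markers were lower in 7 of 10 (6 without that array). In stage I, 0 of these 10 were called, but all 10 lay below controls, 6 at an unadjusted p under 0.05 (median log2 difference -0.25). The part of these cell types in the Fkbp4 levels was not tested.

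Fkbp5, the immunophilin that is itself induced by glucocorticoids and progestins, was higher in stage II. Controls ran from 12.13 to 12.60 with a median of 12.32. Stage I measured 12.10, 12.21 and 12.31, and stage II 12.82, 12.62 and 12.74. Every stage II ovary was above every control and every stage I ovary, and the closest pair was stage II replicate 2 at 12.62 and control replicate 1 at 12.60. Over all probe sets, stage II lay above every control in 9.67% and above all of stage I in 14.4%. Stage I lay within the range of the controls apart from replicate 1, just below it.

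Fkbp5 was 1.32-fold higher in stage II than in controls (log2 0.40 ± 0.10 SE, 95% interval 0.18 to 0.62, limma adjusted p = 0.015) and 1.43-fold higher than in stage I (0.52 ± 0.11 SE, limma adjusted p = 0.015). In stage I the difference from controls was -0.12 ± 0.10 SE (95% interval -0.33 to 0.10, limma adjusted p = 0.955). Pgr was already 30.9-fold higher there, and a link between these genes was not tested. The call against controls ended without stage II replicate 1 (0.35, limma adjusted p = 0.0653) or replicate 3 (0.40, limma adjusted p = 0.0614). The call against stage I ended without stage I replicate 2 (0.52, limma adjusted p = 0.0508), stage II replicate 1 (0.47, limma adjusted p = 0.0505) or stage II replicate 3 (0.51, limma adjusted p = 0.0517). The plot of differences sets these members beside one another.

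**Figure D3:**
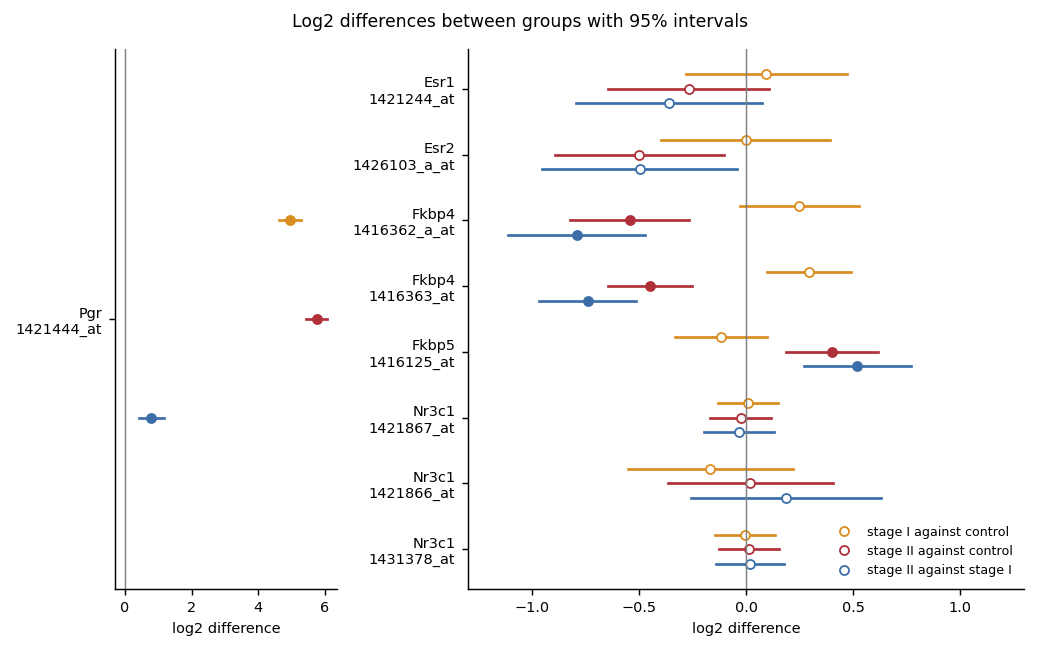
Log2 difference between groups for each member probe set, with its 95% interval; filled points passed an adjusted p under 0.05. Pgr has its own panel and a wider axis, and among the others the filled points are the stage II differences of Fkbp4, below 0, and of Fkbp5, above 0.

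The genes nearest to Fkbp5 and Fkbp4 over the 12 arrays were chosen for their likeness, as for Pgr, so no test of it is given. For Fkbp5 they were Arap3 at a root mean square distance of 0.08, Sema3f at 0.08, C1galt1c1 at 0.09, Isca2 at 0.09 and Atp6v0e at 0.10, against a median of 0.27 over all genes. For 1416363_at of Fkbp4 the nearest was Adgrl1 at 0.10, followed by Fbxo34, Usp11, Ninj2 and Arhgap31. For 1416362_a_at it was Slc25a42 at 0.13, followed by Usp11, Bckdhb, Serpinf1 and Rassf2. Usp11, a ubiquitin-specific protease, was near both Fkbp4 probe sets.

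The 250 bases before the start sites of Fkbp4 and Fkbp5 are shown here so that their promoters can be read side by side. Sequences are from RefSeq (GRCm38.p6) and are given 5′ to 3′ on the strand of the gene. Such windows were searched for 5 of the 6 members, and Nr3c1 was left out by choice. The Fkbp4 window is chr6:128438657-128438906 on the minus strand and that of Fkbp5 is chr17:28486150-28486399 on the minus strand. Capitals mark matches, on either strand, to the heat shock unit GAANNTTC, the CCAAT box CCAAT and the GC box GGGCGG.
Fkbp4: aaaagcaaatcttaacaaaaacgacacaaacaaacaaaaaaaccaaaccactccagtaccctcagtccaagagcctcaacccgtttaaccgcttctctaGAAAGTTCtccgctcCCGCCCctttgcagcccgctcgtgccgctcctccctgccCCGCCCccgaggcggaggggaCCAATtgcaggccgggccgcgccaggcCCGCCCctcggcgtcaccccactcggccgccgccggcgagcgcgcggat
Fkbp5: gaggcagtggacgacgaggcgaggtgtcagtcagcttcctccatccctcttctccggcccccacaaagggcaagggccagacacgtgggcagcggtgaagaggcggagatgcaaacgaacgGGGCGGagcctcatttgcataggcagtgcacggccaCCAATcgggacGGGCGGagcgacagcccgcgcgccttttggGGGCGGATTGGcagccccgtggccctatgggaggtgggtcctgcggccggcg
The Fkbp4 window has a GC content of 63.2% and holds 1 heat shock unit, at position -151 from the start site, 1 CCAAT box and 3 GC boxes. The Fkbp5 window has a GC content of 68% and holds 3 GC boxes and 2 CCAAT boxes, but no match to GAANNTTC. Of 32851 windows of the same length, with a median GC content of 52.4%, 6.69% held GAANNTTC, 33.85% held CCAAT and 32.74% held GGGCGG. Also searched on both strands were TATAAA, present in 12.37% of windows, the half-site TGTTCT shared by the progesterone and glucocorticoid receptors (16.08%), its paired form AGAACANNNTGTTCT (0.01%), the estrogen half-site GGTCA (35.24%) and its paired form GGTCANNNTGACC (0.06%), where each paired form contains its half-site. None of these letters were in either window. A match is a description of the letters only, and no link to the measured levels was tested. The hormone response elements known for FKBP5 include sites in its introns, outside this window.

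The rest of the receptor chaperone machinery, such as the Hsp90 and Hsp70 chaperones, had 1 called gene. Of 16 measured genes, limma called 0 in stage I and 0 in stage II against controls, with 2 higher and 0 lower in each at an unadjusted p under 0.05. Between stage II and stage I it called 1, Hspa1b, an inducible Hsp70, as lower; before adjustment, 5 of the 16 had a p under 0.05 as lower and 1 as higher. Without stage I replicate 1, 5 of the 16 were called lower between the stages. The median log2 difference of the list was 0.08 in stage I and -0.03 in stage II, beside medians of -0.00 and -0.01 over all probe sets. Hspa1b measured 9.50 to 9.97 in controls, 10.20, 10.90 and 11.68 in stage I, and 9.65, 9.61 and 9.74 in stage II. The stage I ovaries were above all others and spread over more than a doubling. Hspa1b was lower in stage II than in stage I by 1.26 ± 0.26 SE (log2, limma adjusted p = 0.0119), and its stage I difference from controls of 1.22 ± 0.23 SE missed the threshold (limma adjusted p = 0.0667).

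Dnajb1, the Hsp40 partner of Hsp70, was high in the same stage I replicates, at 10.85 in replicate 2 and 11.11 in replicate 3 against 10.01 in replicate 1 and 10.01 to 10.56 in controls (limma adjusted p = 0.697 in stage I). Within stage I, Fkbp4 on 1416362_a_at was in the same order as Hspa1b, lowest in replicate 1 and highest in replicate 3. On 1416363_at it was not, as replicate 2 was lowest there at 7.61. In stage II, where Fkbp4 was lowest, Hspa1b lay within the range of the controls. The part of a heat shock response in the Fkbp4 levels was not tested.

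**Figure D4:**
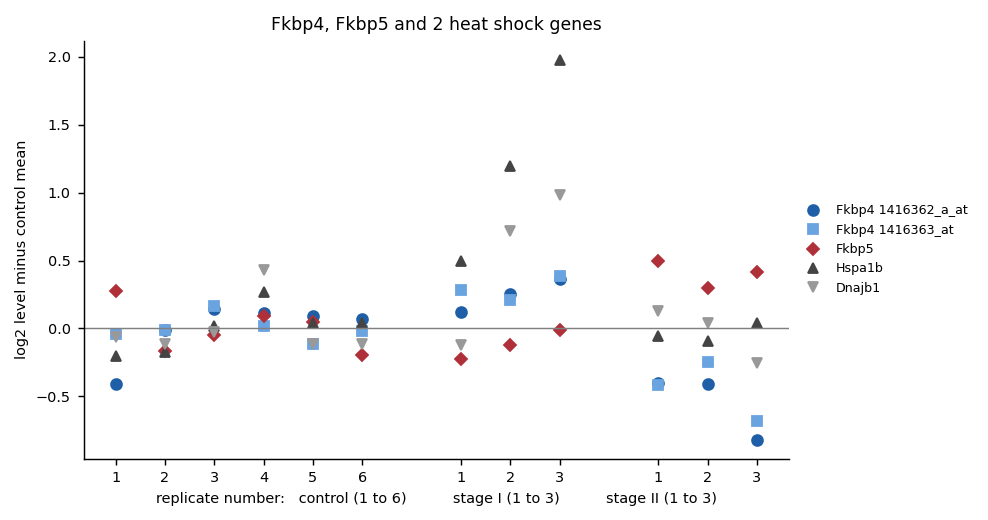
Log2 level minus the control mean for both Fkbp4 probe sets, Fkbp5, Hspa1b and Dnajb1 in each array, by group and replicate number. In stage I, Hspa1b is above all controls and highest in replicate 3; in stage II, Hspa1b lies within the range of the controls, Fkbp4 lies below 0 and Fkbp5 above it.

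Among the other immunophilins 1 of 5 measured genes was called. Fkbp11, an immunophilin of the endoplasmic reticulum, was higher in stage II than in controls by 0.69 ± 0.14 SE (log2, limma adjusted p = 0.00593), and by 0.68 than in stage I. The call against stage I ended without stage I replicate 2 or 3 or without stage II replicate 2 or 3, where the difference ran from 0.52 to 0.78. Both calls were lost as the mean of the gene's probe sets and in the fit with a replicate block, with limma adjusted p-values of up to 0.113 against controls and 0.191 against stage I. None of the 7 measured membrane steroid receptors, which bind steroids at the cell surface or are linked to such binding, was called in stage I by limma, and 0 had an unadjusted p under 0.05. In stage II Paqr4 was called (0.38 ± 0.10 SE, limma adjusted p = 0.0169), but not once stage II replicate 1 or replicate 3 was left out (0.27 to 0.49 over single arrays left out).

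Of 29 other nuclear receptors, limma called 0 in stage I, where 4 were lower at an unadjusted p under 0.05. In stage II 2 were higher and 4 lower than in controls, against 9.25% and 10.1% of all probe sets, and the list's median difference was -0.03. Without stage II replicate 3, 2 were called higher and 2 lower. Nr1h4, the bile acid receptor, was higher by 0.94 ± 0.21 SE (limma adjusted p = 0.00898) and Hnf4a, a receptor of liver and gut epithelium, by 0.59 ± 0.11 SE (limma adjusted p = 0.00335). Lower were Nr5a1, which encodes SF-1, the activator of steroid enzyme genes, by 0.59 ± 0.12 SE (limma adjusted p = 0.00612), and Nr5a2, its relative in granulosa cells, by 0.57 ± 0.11 SE (limma adjusted p = 0.00343). These 4 calls held with any single array left out. In the fit with a replicate block, Nr1h4, Hnf4a and Nr5a1 were no longer called (limma adjusted p = 0.0501, 0.0641 and 0.0938), while Nr5a2 was. Nr5a1 was also lower in stage II than in stage I, by 0.81 ± 0.14 SE (limma adjusted p = 0.00468, and 0.0514 with the replicate block).

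Receptor coregulators are the proteins that carry a bound receptor's signal to chromatin. Of 17 measured, limma called 0 in stage I, and 0 had an unadjusted p under 0.05. It called 0.195% of all probe sets higher and 0% lower there. In stage II 2 were higher and 5 lower than in controls, against 9.25% and 10.1% of all probe sets, with a median difference of -0.19. Tbl1xr1, a subunit of the corepressor complex, was higher by 0.69 ± 0.12 SE (limma adjusted p = 0.00206), and Kdm1a, a histone demethylase, was lower by 0.50 ± 0.10 SE (limma adjusted p = 0.00414). Without stage II replicate 3, or in the fit with a replicate block, 1 was called higher and 1 lower. Between the stages 2 were higher and 1 lower in stage II.

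Among 13 measured enzymes that make or break down the ligands, limma called 0 in stage I (1 higher and 1 lower at an unadjusted p under 0.05). It called 1 higher and 2 lower in stage II than in controls, where 2 were higher and 4 lower before adjustment. Hsd17b11, a 17-beta-hydroxysteroid dehydrogenase, was higher by 1.17 ± 0.18 SE (limma adjusted p = 0.000707). Cyp17a1, which turns progestins into androgens in theca cells, was lower by 2.68 ± 0.73 SE (limma adjusted p = 0.0237). Its stage II ovaries measured 10.19, 10.26 and 6.06 against 10.79 to 12.18 in controls, so replicate 3 decided the size, and without that array the difference was -1.29. Theca and interstitial cell markers were lower in the same ovaries, with 6 of 7 called lower in stage II and 3 of 7 without stage II replicate 3. Their mean level ran from 10.48 to 10.73 in controls and was 10.23, 10.02 and 9.34 in stage II. The part of theca cell content in the Cyp17a1 level was not tested.

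Of 17 genes listed as targets of the progesterone receptor, not all of them from the ovary, limma called 0 in stage I. There 3 were higher and 1 lower at an unadjusted p under 0.05. The list shares Zbtb16, which was called higher in stage II, with the glucocorticoid-responsive genes below. In stage II 6 were called higher and 1 lower than in controls, against 9.25% and 10.1% of all probe sets. Compared with stage I, 4 were called higher and 0 lower, against 6% and 4.92%, and 2 were lower at an unadjusted p under 0.05. The median difference from controls was -0.01 in stage I and -0.04 in stage II, and 9 of the 17 lay below 0 in stage II. Prkg2, a cGMP-dependent protein kinase, ran from 4.55 to 5.17 in controls, measured 5.31, 5.33 and 4.82 in stage I and 6.73, 6.44 and 6.51 in stage II. Stage I overlapped the controls and stage II was above all other arrays. Its difference in stage II was 1.75 ± 0.15 SE from controls and 1.41 ± 0.18 SE from stage I (limma adjusted p = 9.53e-06 and 0.000663). Hand2, a transcription factor induced by progesterone in the uterus, was at 4.05 to 4.39 in controls, 5.26, 4.39 and 4.63 in stage I and 6.49, 6.51 and 6.48 in stage II (2.28 ± 0.15 SE, limma adjusted p = 9.9e-07).

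Sphk1, a sphingosine kinase, was higher in stage II by 0.88 ± 0.11 SE (limma adjusted p = 0.00012). Fabp4, a fatty acid binding protein that adipocytes also make, was higher by 2.47 ± 0.45 SE (limma adjusted p = 0.00251). The adipocyte hormone gene Adipoq was lower by 3.34 ± 0.66 SE in the same comparison (limma adjusted p = 0.00414). Without any single array 5 or 6 of the 17 were called higher in stage II than in controls.

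Glucocorticoid-responsive genes, which like Fkbp5 are targets of Nr3c1, were higher more often than lower in stage II. Of 15 measured genes, 1 was called higher in stage I, and 6 were higher and 1 lower in stage II than in controls. These counts were the same without any single array. Over all probe sets, 0.195% were called higher in stage I, and 9.25% higher and 10.1% lower in stage II. Like the other lists, this one was chosen with earlier results of these data known, so its counts are a description. In stage I, 7 were higher and 2 lower at an unadjusted p under 0.05. Between the stages, 3 were called higher and 1 lower in stage II, and 0 and 0 without stage II replicate 3. The median difference from controls was 0.18 in stage I and 0.41 in stage II. Zbtb16, a zinc finger repressor that both receptors induce, ran from 4.46 to 6.17 in controls, measured 7.16, 6.19 and 6.40 in stage I and 8.06, 8.16 and 8.36 in stage II. Stage II was above all other arrays and stage I was above the controls. Zbtb16 was higher in stage II by 2.70 ± 0.35 SE (limma adjusted p = 0.00022), and its stage I difference of 1.10 ± 0.35 SE was not called (limma adjusted p = 0.559).

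Tsc22d3, which encodes GILZ, a mediator of the anti-inflammatory action of glucocorticoids, was higher in stage II by 0.67 ± 0.10 SE (limma adjusted p = 0.000855). The metallothionein genes Mt1 and Mt2 were higher by 1.53 ± 0.17 and 1.86 ± 0.20 SE (limma adjusted p = 7.87e-05 and 4.08e-05), and Cebpd by 1.62 ± 0.22 SE (limma adjusted p = 0.000312). Lcn2, an iron-scavenging protein of innate defence, was called in both stages, at 6.68 ± 0.47 SE in stage I and 8.05 ± 0.47 SE in stage II (limma adjusted p = 2.4e-05 and 6.34e-07). Angptl4, an inhibitor of lipoprotein lipase, was lower in stage II by 0.68 ± 0.12 SE (limma adjusted p = 0.00181). Sgk1 and Klf9, also glucocorticoid targets, differed by 0.05 and 0.09 in stage II (limma adjusted p = 0.891 and 0.449). These genes and Tsc22d3 were chosen after their values were seen. Several of these genes, among them Lcn2, Cebpd and the metallothioneins, also respond to inflammatory signals. Macrophage markers were higher in the same ovaries, with 6 of 7 called in stage II against controls. That count was 3 without stage II replicate 3, with a replicate block or without control replicates 1 and 4. In stage I, 0 were called, but 6 of 7 were higher at an unadjusted p under 0.05. Their median log2 difference was 0.46 in stage I, 0.53 in stage II and 0.06 between the stages. The mean level of those 7 genes ran from 7.91 to 8.20 in controls, from 8.11 to 8.98 in stage I and from 8.71 to 9.07 in stage II. Their part in the result was not tested.

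Estrogen-responsive genes moved both ways. Of 18 measured, 1 was called higher in stage I, against 0.195% of all probe sets. In stage II, 6 were higher and 3 lower than in controls, against 9.25% and 10.1%. The median difference was 0.06 in stage I and 0.05 in stage II. Ccnd1, cyclin D1 of the G1 phase, was higher by 2.28 ± 0.30 SE in stage I (limma adjusted p = 0.00479) and by 4.37 ± 0.30 SE in stage II (limma adjusted p = 1.49e-06). Tff3, a trefoil peptide of epithelia, was higher in stage II by 1.92 ± 0.19 SE (limma adjusted p = 2.19e-05) and Tgfa, a ligand of the EGF receptor, by 1.12 ± 0.20 SE (limma adjusted p = 0.00216). The genes called lower were Sox4, Igf1 and Greb1, named after their values were seen. Greb1, a cofactor of the estrogen receptor and among its direct targets, fell by 0.30 ± 0.08 SE (limma adjusted p = 0.0223). That call ended without stage II replicate 1 or 3, with differences between -0.36 and -0.26 over single arrays left out. Without stage II replicate 3, 5 were higher and 1 lower.

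**Figure D5:**
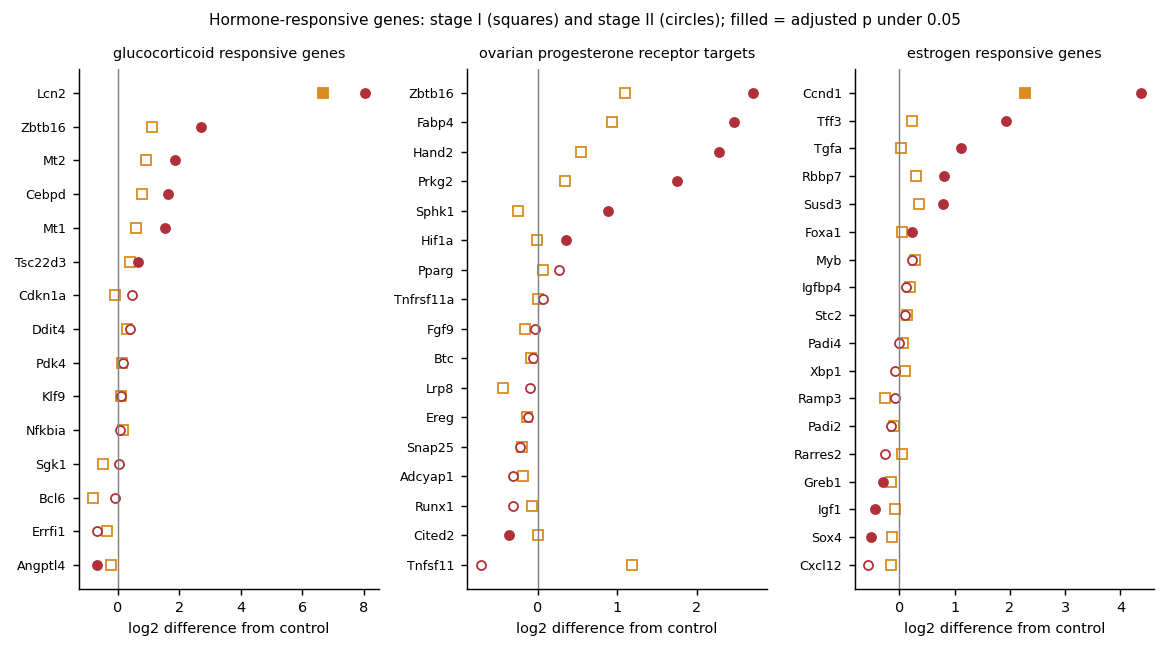
Log2 difference from control of the measured genes of 3 hormone-responsive lists, for stage I (squares) and stage II (circles); filled symbols passed an adjusted p under 0.05. Filled circles mark 6 genes higher and 1 lower in stage II in the glucocorticoid list and the same counts in the progesterone receptor list, and 6 higher and 3 lower in the estrogen list.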

How the data were processed

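RNA of 12 mouse ovary samples was prepared with Trizol and a column kit and carried a biotin label, per the labels' protocols. Those protocols also name Cy3 and Cy5, although each sample has 1 channel. The authors deposited 1 log2 value per probe set and array. The scale was judged from the values (2.69 to 14.4). How the signals were summarised and normalized is not given in the sources used here, and no detection calls were used. The table holds only part of the array's probe sets, and genes outside it were not analysed here. Of its 16376 probe sets, 14674 had 1 symbol in the platform annotation, 427 several and 1275 none.

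The groups followed genotype and tumor stage in the labels, which call the samples bioreplicates. With limma 3.58.1 (lmFit, eBayes) in R 4.3.3, a mean per group was estimated from all 12 arrays, with 9 degrees of freedom from the residuals and 3.29 from the prior. The Benjamini-Hochberg adjustment covered every probe set, with a threshold of 0.05. Intervals are 95%. The number of arrays limits the precision. The fit was tested on simulated data.

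Members and gene lists were chosen with earlier results of these data known. A list gene was represented by its probe set with the highest mean. Named were every member, up to 4 called genes per pathway list and comparison (up to 2 where none passed), up to 3 per cell type list, and the 5 genes nearest to each called member. The text names only part of these, and other genes where it says so.

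The alternatives were quantile normalization, centred medians, leaving out the dimmest 25 percent of probe sets, 1 probe set per gene, an average over each gene's probe sets, fits on only the groups compared, array weights, a prior with trend and robust estimation, a block for the replicate number, and leaving out each array. Leaving out control replicates 1 and 4 together was chosen after seeing the data. Identical arrays were looked for, and 0 pairs were found. Deviations of same-numbered arrays correlated between -0.149 and 0.206, so the numbers were not taken to pair them.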

Additional observations from a re-analysis of the deposited data

Results flagged for a closer look

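Control replicate 1 stood apart on the brighter Fkbp4 probe set (1416362_a_at), at 9.71, with a gap to the other 5 controls that takes up most of the group's range. About 1 in 20 groups would show such a gap by chance. On the other Fkbp4 probe set the same ovary measured 7.36, within the range of the controls.

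The comparison with controls differed between stage I and stage II for 3 members. Fkbp4 was lower in stage II than in stage I by a log2 difference of -0.79 on 1416362_a_at and -0.74 on 1416363_at (limma adjusted p = 0.00643 and 0.00128). Fkbp5 was higher in stage II than in stage I by 0.52 (limma adjusted p = 0.015), and Pgr by 0.80 (limma adjusted p = 0.0121). Every stage II ovary was on the same side of every stage I ovary in each of these, which over all 16376 probe sets held for 14.4% as higher and 16.2% as lower in stage II.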

How the results depend on the processing

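Of 582 recomputed member differences, 537 kept their direction and their side of the threshold, 12 called differences missed it, 1 passed it, and 32 changed sign. The Pgr differences from controls kept both under every alternative run (4.859 to 5.086 in stage I and 5.656 to 5.883 in stage II). The Pgr step between stages ran from 0.722 to 0.88 with single arrays left out and from 0.669 to 0.797 otherwise. The count of called member probe sets ran from 2 to 5 in stage II against controls and from 2 to 4 against stage I with single arrays left out. It was 2 against controls without stage II replicate 3, and 2 against stage I without that array or without stage I replicate 2.

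With the replicate block, 1 member probe set was called in stage II against controls. Fkbp4 then missed the threshold against controls (-0.45, limma adjusted p = 0.141, and -0.487, limma adjusted p = 0.0608), as did Fkbp5 against controls (0.382, limma adjusted p = 0.0867) and against stage I (0.519, limma adjusted p = 0.0506). The cause was not tested. The block changed no other call on a member. Probe set 1431378_at gave no value without the dimmest probe sets, and counts of member probe sets were not formed with 1 value per gene.

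All changes of sign were in differences not called. Without control replicates 1 and 4, Esr2 in stage I was 0.028, and in stage II Nr3c1 was 0.012 on 1421867_at and -0.015 on 1431378_at. Under quantile normalization Nr3c1 in stage II was -0.035 on 1421866_at and -0.006 on 1431378_at, and with centred medians -0.001 and -0.006. As an average over its probe sets Nr3c1 was -0.055 in stage I, 0.002 in stage II and 0.057 between the stages, and with array weights 1421867_at was 0.055 in stage II and 0.023 between the stages. With single arrays left out, stage I against controls ran from -0.065 to 0.193 for Esr1, -0.157 to 0.204 for Esr2, and -0.338 to 0.096, -0.012 to 0.029 and -0.031 to 0.025 for Nr3c1 on 1421866_at, 1421867_at and 1431378_at. Stage II against controls ran from -0.132 to 0.194, -0.084 to 0.036 and -0.006 to 0.042 on the same probe sets. Stage II against stage I ran from -0.078 to 0.362 on 1421866_at and from -0.091 to 0.03 on 1421867_at.

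Counts over all probe sets moved by over 1.5 times in some settings. Stage I against controls, with 32 higher and 0 lower, had 7 and 1 with the block and 18 and 1 without control replicates 1 and 4. Array weights gave 2 lower there. Stage II against controls, with 1514 higher and 1660 lower, had 971 and 530 with the block and 1008 and 579 without stage II replicate 3. Stage II against stage I, with 983 and 806, had 605 and 202 with the block, 448 and 111 from the compared groups alone, 1485 and 1471 with array weights, 957 and 1215 under quantile normalization, 608 and 183 without stage II replicate 3, 778 and 464 without stage II replicate 1, 558 and 243 without stage I replicate 2, and 555 and 230 without stage I replicate 3. Without a measured background, how far dim signals compress a difference cannot be given.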
